A study of Mus musculus with 6 samples.

Results

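The genes described here are 9 chemokine ligands (Cxcl1, Cxcl2, Cxcl5, Ppbp, Cxcl10, Cxcl12, Ccl2, Ccl7 and Ccl5) and the scavenging receptor Ackr3. They were chosen by name, with earlier results of these data known. All 10 were among the 26532 genes of the count table and among the 13764 that were abundant enough to test. Messenger RNA was sequenced from mouse embryonic fibroblasts (MEFs), connective tissue cells grown from embryos, which the labels class as mesenchymal stem cells. The GFP group had 3 libraries from cells with the genotype label WT, given an adenovirus for green fluorescent protein. The ORAI2 group had 3 libraries from cells with the genotype label ORAI2 Overexpression, given an adenovirus for ORAI2, a subunit of the plasma membrane calcium channels that open when intracellular calcium stores run empty. Both groups therefore carried a virus and both were labelled as undergoing osteogenic differentiation, and no library without a virus was analysed here. The viral promoter, the time in culture, any addition of the bone morphogenetic protein BMP9 and the origin of the libraries from separate cultures were not given in the sources used here. Therefore, p-values reflect how far these libraries vary among themselves, and that variation may be technical.

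Chemokines are small secreted proteins that attract leukocytes along a gradient by binding receptors coupled to G proteins. The CXC ligands Cxcl1, Cxcl2, Cxcl5 and Ppbp act on CXCR2 and draw neutrophils, Cxcl10 acts on CXCR3 of activated T cells, and Cxcl12 acts on CXCR4 and retains progenitor cells in bone marrow. Among the CC ligands, Ccl2 and Ccl7 draw monocytes through CCR2, while Ccl5 draws T cells and other leukocytes. Ackr3 binds Cxcl12 and removes it from the surroundings without the usual signalling through G proteins. Fibroblasts are known to release many of these ligands after contact with virus, interferon or inflammatory cytokines, through factors such as NF-kB and the interferon regulatory factors.

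The promoters show how alike some of these genes are. RefSeq promoter sequences (build GRCm38.p6) were found for 6 of the 10 members and for Cxcl3, a further CXCR2 ligand of the same gene cluster. The last 120 bases before the annotated start of 3 neighbouring CXCR2 ligand genes are shown in lower case, with the kB motif, to which NF-kB binds, in capitals. In all 3 the capitals hold the same letters, which is why they are shown.
Cxcl1, chr5:90891125-90891244, plus strand: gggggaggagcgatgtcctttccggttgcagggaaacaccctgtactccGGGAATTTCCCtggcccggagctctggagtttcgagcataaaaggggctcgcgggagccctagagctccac
Cxcl2, chr5:90903779-90903898, plus strand: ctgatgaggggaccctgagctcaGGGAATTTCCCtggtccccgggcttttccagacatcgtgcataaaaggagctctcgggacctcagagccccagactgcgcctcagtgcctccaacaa
Cxcl3, chr5:90785981-90786100, plus strand: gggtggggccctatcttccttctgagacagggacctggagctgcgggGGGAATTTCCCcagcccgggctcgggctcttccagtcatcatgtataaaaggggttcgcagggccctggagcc

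The promoter of Cxcl10 is shown over 250 bases because it holds matches to kB and to the interferon-stimulated response element (ISRE, searched as GAAA, any 2 bases and GAAA again), both in capitals.
Cxcl10, chr5:92348890-92349139, minus strand: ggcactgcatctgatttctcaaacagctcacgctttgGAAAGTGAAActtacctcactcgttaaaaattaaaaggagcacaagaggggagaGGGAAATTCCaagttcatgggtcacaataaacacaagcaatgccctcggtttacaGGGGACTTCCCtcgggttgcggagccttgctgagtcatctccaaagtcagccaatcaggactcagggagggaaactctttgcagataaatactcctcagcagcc

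The promoters of Ppbp and Ackr3, the 2 members with the largest fold changes, had no kB or ISRE match in the 250 bases before the start, which says only that these letters are not in this window. They are shown over 120 bases for comparison.
Ppbp, chr5:90768398-90768517, plus strand: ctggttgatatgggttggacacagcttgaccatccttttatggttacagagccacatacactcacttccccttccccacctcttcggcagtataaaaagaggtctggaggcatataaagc
Ackr3, chr1:90203860-90203979, plus strand: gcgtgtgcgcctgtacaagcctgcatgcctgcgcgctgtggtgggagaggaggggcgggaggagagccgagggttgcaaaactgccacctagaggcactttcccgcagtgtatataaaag

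Both strands were searched, and the capitals join matches that overlap, as those on opposite strands do in Cxcl1, Cxcl2 and Cxcl3. A kB match was found in 7.25% and an ISRE match in 2.98% of 32851 promoters searched over the same 250 bases. The interferon-gamma activated sequence (GAS, searched as TTCNNNGAA, found in 7.02% of promoters) had no match in these 7 promoters. The AP-1 motif (TGANTCA, found in 6.75%) matched in Cxcl10 and in Ppbp. Cxcl12 had a match to none of these motifs.

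Orai2 itself had 994, 914 and 909 counts under GFP but 67882, 53034 and 45140 counts under ORAI2, as the labels say. Total counts lay between 18526884 and 18844436 per library. The 10 members took 0.521% of the counts in the GFP group and 0.416% in the ORAI2 group. As markers of the labelled cell type, 12 fibroblast and mesenchymal genes summed to between 2697 and 2787 CPM (counts scaled to the library total) in GFP libraries, against 1525 to 1663 CPM with ORAI2. All 10 of them that were tested were lower in ORAI2, beside 22.1% of all genes tested. Among them were Col1a1 (2.59-fold), Col1a2 (3.01-fold), Pdgfrb (1.66-fold) and Pdgfra (1.55-fold). Thy1 and Fap, with at most 10 counts in a library, were nearly absent in both groups. In bulk samples, fewer cells of a type and less RNA per cell cannot be told apart.

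Of the members, 7 had lower RNA in the ORAI2 libraries, 1 was higher and 2 did not pass the test. A member was called at an adjusted p under 0.05 in edgeR's quasi-likelihood test, with Benjamini-Hochberg adjustment over all 13764 genes. Among all genes tested, 42.9% were called, 22.1% lower and 20.8% higher in ORAI2. The 7 lower members are to be read against 22.1%, and the 1 higher member against 20.8%. Because the members were chosen with earlier results of these data known, these numbers describe them and do not measure an excess. The same holds for the gene lists further below. The groups did not overlap for 7 of the 10 members, against 52.8% of all genes tested. The median log2 fold change of the members was -0.31, against -0.002 over all genes tested. Only Ackr3 and Ppbp changed by 2-fold or more, and 7 of the 10 changed by less than 1.5-fold.

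**Figure D1:**
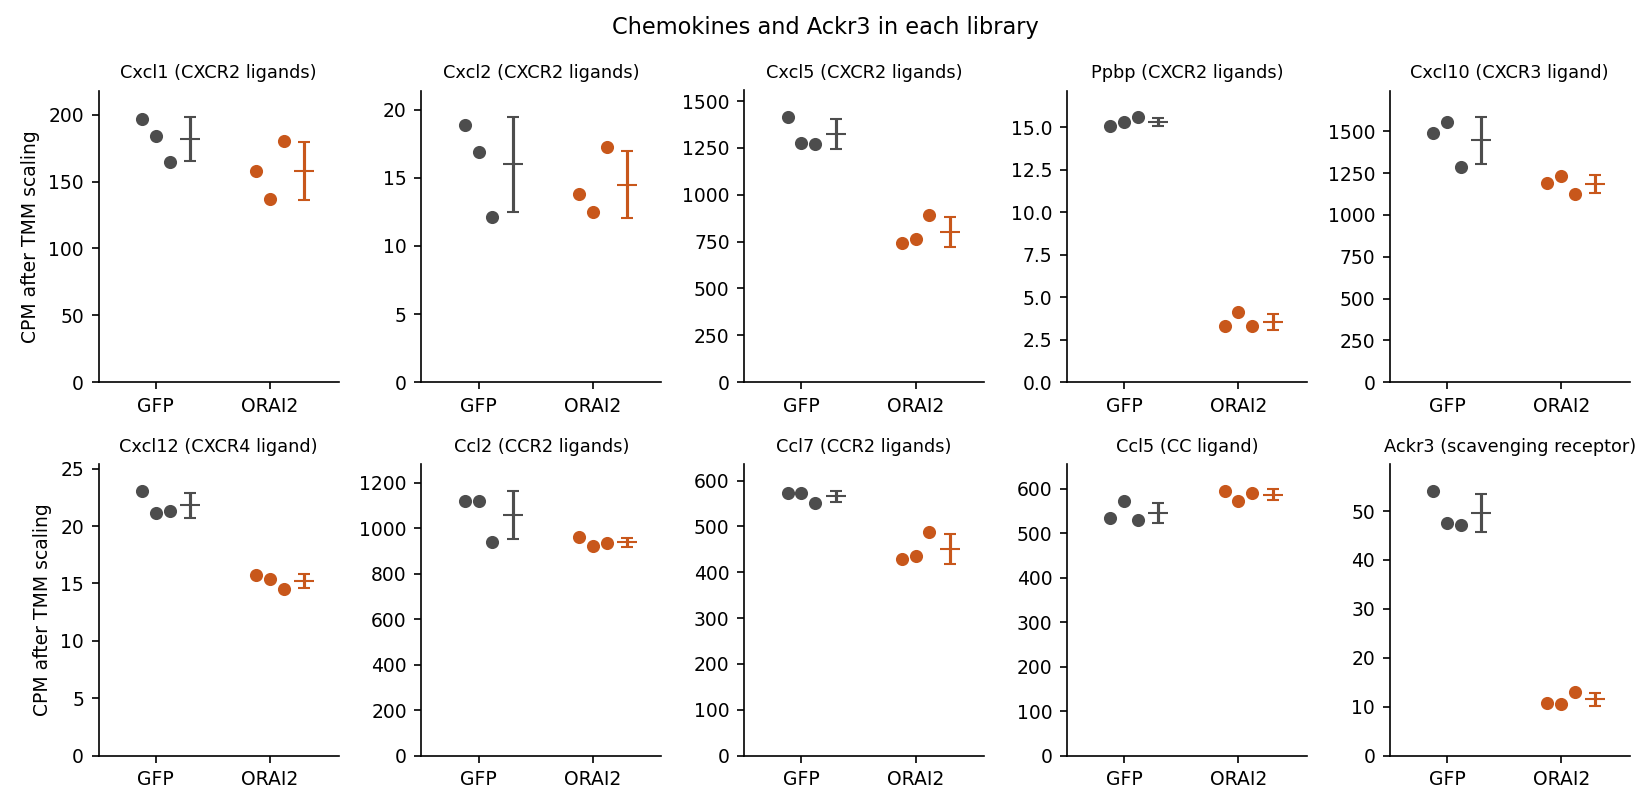
Levels of the 10 members in each library, in CPM after TMM scaling on a linear axis from 0; points are the 3 GFP (grey) and 3 ORAI2 (orange) libraries, and the bar beside them is the mean with its SD. Relative to their GFP level, Ackr3 and Ppbp show the widest gap between the groups, whereas the Cxcl1, Cxcl2 and Ccl2 points of the groups overlap.

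Ackr3 and Ppbp had the largest fold changes of the members and were level with each other: without GFP replicate 1 the log2 fold change was -2.04 for Ackr3 and -2.11 for Ppbp, and without ORAI2 replicate 2 it was -2.05 and -2.21. The Ackr3 level was 54.2, 47.6 and 47.2 CPM in GFP libraries, against 10.8, 10.6 and 13.1 CPM with ORAI2. Every ORAI2 library lay far below every GFP library, and ORAI2 replicate 3 was the highest of its group. The mean went from 49.6 ± 3.93 to 11.5 ± 1.41 CPM (SD, n = 3), or 4.31-fold lower (log2 fold change -2.11, SE 0.09, edgeR adjusted p = 5.49e-09). When the 10526 genes averaging 5 CPM or more were ranked by their fall, Ackr3 took place 9 and Ppbp place 10.

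Cxcl12, the ligand that Ackr3 clears, fell as well but by less. It was at 23.1, 21.1 and 21.3 CPM in GFP and at 15.7, 15.4 and 14.5 CPM in ORAI2, 1.44-fold lower without overlap (log2 fold change -0.52, SE 0.07, adjusted p = 9.22e-05, edgeR). Within a library the ratio of Ackr3 counts to Cxcl12 counts does not depend on the scaling between libraries. That ratio was 2.35, 2.25 and 2.21 under GFP, against 0.687, 0.689 and 0.907 under ORAI2, a 3.01-fold difference with no overlap. The exact two-sided permutation test gave p = 0.1, the smallest value that 3 libraries against 3 allow. The signalling receptor for Cxcl12, Cxcr4, had 1 count over the GFP libraries and 4 over the ORAI2 libraries, too few to compare at this depth.

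The scavenging receptors Ackr2 and Ackr4 had at most 2 and 3 counts in any library. Ccrl2, a relative of the atypical receptors that presents the ligand chemerin and does not carry chemokine signals itself, was 10.4, 12.1 and 9.21 CPM in GFP and 1.78, 3.68 and 2.27 CPM in ORAI2. It was thus lower in each ORAI2 library than in any GFP library, by 4.08-fold (edgeR adjusted p = 4.60e-06). Of 18 signalling chemokine receptors listed, 13 could be looked up and 12 of these were under the filter on low counts. Cxcr2, the receptor of the neutrophil-attracting ligands, had 4 to 10 counts in each library. Ccr2 and Cxcr3 were not analysed here. The single receptor tested, Ccr10, had a log2 fold change of -0.89 at 0.768 and 0.413 CPM and did not pass (adjusted p = 0.0623, edgeR). A count of 0 would allow up to 3 counts, which is 0.159 to 0.162 CPM in these libraries.

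**Figure D2:**
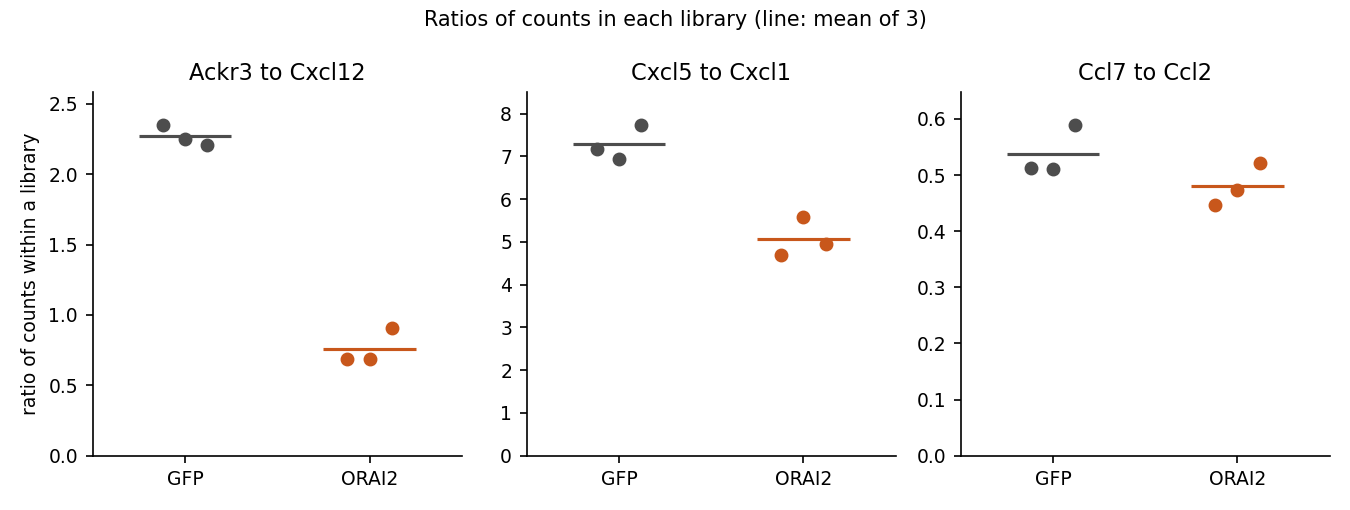
Ratio of the counts of 2 genes within each library, on linear axes from 0; points are libraries and lines the means of the 3 GFP and 3 ORAI2 libraries. The groups are apart for Ackr3 to Cxcl12 and for Cxcl5 to Cxcl1, and they overlap for Ccl7 to Ccl2.

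The genes whose levels followed Ackr3 most closely over the 6 libraries were Igsf10, Pdgfrb, Sfmbt2 and P4hb, with Pearson correlations of log2 CPM of 0.9997, 0.9996, 0.9995 and 0.9992. They were 2.38-fold, 1.66-fold, 1.6-fold and 1.26-fold lower in ORAI2. With 3 libraries on either side of 1 contrast, such correlations mainly describe the difference between the groups, and 1140 of the 10123 genes compared reached 0.95. In the reference order of protein-coding genes, Cops8, the first after Ackr3, was narrowly called higher in ORAI2 (log2 fold change 0.13, adjusted p = 0.0490, edgeR). The second, the collagen gene Col6a3, was lower (-0.69, adjusted p = 1.78e-07, edgeR). The third, Mlph, did not pass (0.18, adjusted p = 0.557, edgeR). Calls were made for 42.9% of all genes tested.

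Among the CXCR2 ligands, Ppbp and Cxcl5 fell, and Cxcl1 and Cxcl2 did not pass the test. Ppbp, known as a platelet granule chemokine, was at 15.1, 15.3 and 15.6 CPM in GFP and at 3.29, 4.11 and 3.30 CPM in ORAI2. The GFP values were nearly identical and all lay far above the ORAI2 values. Ppbp was thus 4.29-fold lower (edgeR adjusted p = 2.22e-08; log2 fold change -2.10, SE 0.11). It rests on 282 to 292 counts per GFP library and 61 to 77 per ORAI2 library.

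Platelet genes were looked at beside it. Of 10 listed markers of platelets and megakaryocytes, Pf4, a chemokine stored with Ppbp in platelets, had 1 count over all libraries, Gp6 had none, and Gp9, Treml1 and Clec1b had at most 2 in a library. Of the 4 that were tested, Itga2b, the integrin chain of the platelet fibrinogen receptor, was 3.4-fold lower, from 5.63 ± 0.886 to 1.65 ± 0.361 CPM (SD, n = 3, edgeR adjusted p = 1.27e-05), and Gp1ba, Gp1bb and Thpo did not pass. Among all genes tested, 22.1% were called lower. The listed markers summed to between 7.80 and 9.76 CPM in GFP and between 3.94 and 5.4 CPM in ORAI2. Most of the difference was that of Itga2b.

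Cxcl5 was by far the most abundant CXCR2 ligand in counts. It was at 1415, 1278 and 1273 CPM in GFP and at 743, 763 and 890.1 CPM in ORAI2. All ORAI2 libraries lay below all GFP libraries, with replicate 3 the highest of the ORAI2 group. The mean went from 1322 ± 80.3 to 799 ± 79.8 CPM (SD, n = 3), 1.66-fold lower (log2 fold change -0.73, SE 0.06, adjusted p = 1.96e-06, edgeR).

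Cxcl1, the classical neutrophil attractant of mouse fibroblasts, was at 197, 184 and 165 CPM in GFP and at 158, 137 and 180.3 CPM in ORAI2. ORAI2 replicate 3 lay above GFP replicate 3, so the groups overlapped. The log2 fold change was -0.20 (SE 0.08) with an adjusted p of 0.0725 (edgeR), which did not pass. It passed narrowly with the replicate number as a block (adjusted p = 0.0493) and with upper quartile scaling (0.0499). It also passed without GFP replicate 3 (0.0231) or without ORAI2 replicate 3 (0.00857). Other alternatives were far from passing, with an adjusted p of 0.277 in DESeq2 and 0.28 in a robust edgeR fit. Without GFP replicate 1 the adjusted p was 0.25, and without ORAI2 replicate 2 it was 0.301 (edgeR).

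Cxcl2, a close relative of Cxcl1, was scarce and the noisiest member. Its levels were 18.9, 16.9 and 12.1 CPM in GFP and 13.8, 12.5 and 17.3 CPM in ORAI2. The values of the groups were intermixed, and the log2 fold change of -0.14 (SE 0.15) did not pass (adjusted p = 0.490, edgeR). This does not show that the level was the same. Of the 31-base words in its annotated transcripts, 7.59% also occur in another gene, mainly Cxcl3, so that its own count is uncertain where reads could be shared.

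Cxcl3, named beside the members because it shares their receptor, was 73.5, 64.9 and 70.4 CPM in GFP and 27.5, 25.8 and 37.6 CPM in ORAI2. It was 2.30-fold lower with no overlap (log2 fold change -1.20, adjusted p = 1.94e-06, edgeR). Of the 31-base words of Cxcl3, 5.46% occur in another gene, mainly Cxcl2, so its count is also uncertain where reads could be shared. The kB match printed for Cxcl3 has the same letters as those of Cxcl1 and Cxcl2. Any part of this motif in the changes was not tested, nor was whether the change of Cxcl3 differs from that of Cxcl1 or Cxcl2.

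The ratio of Cxcl5 to Cxcl1 counts was 7.18, 6.94 and 7.73 under GFP, against 4.70, 5.57 and 4.94 under ORAI2. The groups did not overlap, and the 1.44-fold difference had an exact two-sided permutation p of 0.1, again the smallest possible. Summed over Cxcl1, Cxcl2, Cxcl3, Cxcl5 and Ppbp, CXCR2 ligand RNA went from 1601 ± 86.1 to 1006 ± 105 CPM (SD, n = 3, without TMM scaling), 37.2% lower. Cxcl5 made up 82.0% to 82.9% of these counts in GFP libraries and 78.6% to 81.0% in ORAI2 libraries, and Cxcl1 10.7% to 11.8% and 14.5% to 16.7%.

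These genes lie side by side on chromosome 5. In the order of protein-coding genes in the RefSeq table of GRCm38.p6, Cxcl5 is followed by Ppbp, Pf4, Cxcl3, Cxcl15, Cxcl1 and Cxcl2. The log2 fold changes along this order were -0.73 for Cxcl5, -2.10 for Ppbp, -1.20 for Cxcl3, -0.20 for Cxcl1 and -0.14 for Cxcl2. Pf4 and Cxcl15, with at most 9 counts in a library, were not tested. The called members of the cluster thus stood at one end and the 2 that were not called at the other. Outside the cluster, Rassf6, next to Cxcl5, was lower (-1.10, adjusted p = 0.00151), Mthfd2l, next to Cxcl2, was also lower (-0.41, adjusted p = 0.00146), and Ereg, the third gene after Cxcl2, was higher (0.56, adjusted p = 9.08e-05; edgeR).

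**Figure D3:**
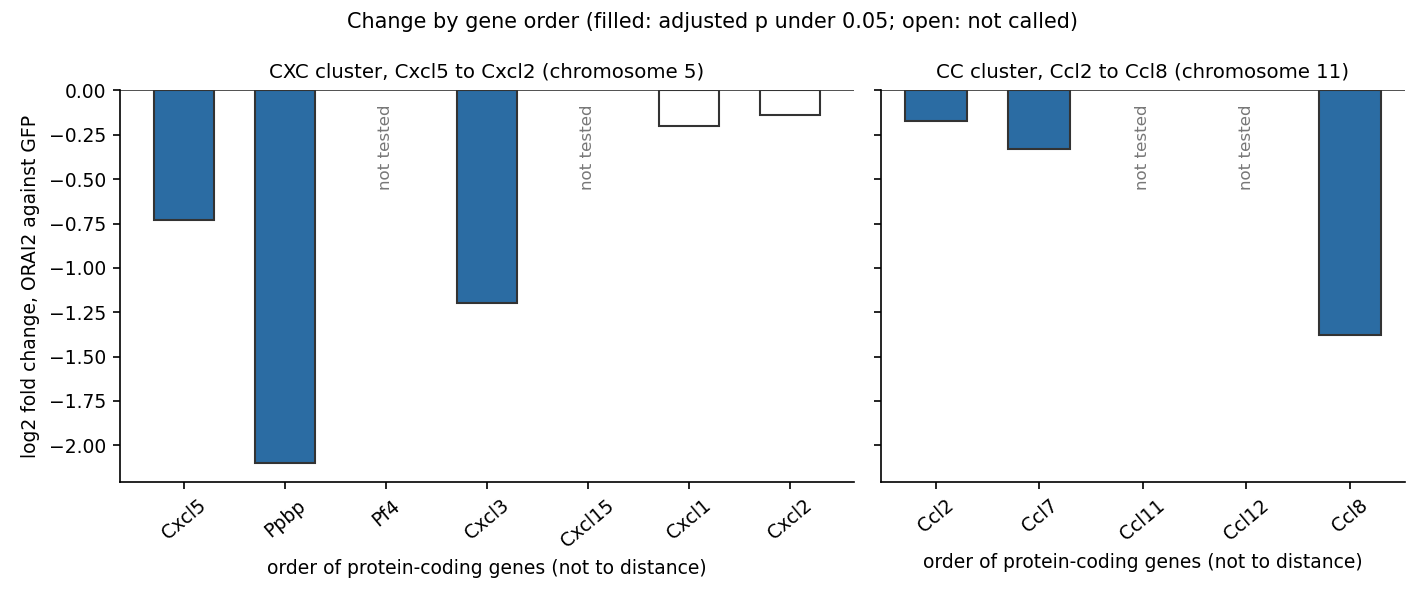
Log2 fold change of ORAI2 against GFP (bars) for the protein-coding genes of the CXC cluster on chromosome 5 and of the Ccl2 to Ccl8 part of the CC cluster on chromosome 11, in gene order and not to distance; filled bars have an adjusted p under 0.05 and open bars do not. Ppbp and Cxcl3 fell more than Cxcl5 in the values shown, and Ccl8 stands at -1.38 beside -0.17 for Ccl2.

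Cxcl10, an interferon-inducible ligand, was the member with the most counts. It was at 1489, 1558 and 1288 CPM in GFP and at 1191, 1235 and 1126 CPM in ORAI2. The lowest GFP library, replicate 3, was still above the highest ORAI2 library. The mean went from 1445 ± 140.3 to 1184 ± 54.7 CPM (SD, n = 3), 1.22-fold lower (log2 fold change -0.29, SE 0.06, adjusted p = 0.00218, edgeR). Annotated transcripts of Art3 overlap Cxcl10 on the opposite strand and share 4.47% of its 31-base words. Art3 had 19 counts over all libraries, and any use of strand in the counting is not given.

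The other CXCR3 ligands were scarcer. Cxcl11, annotated in the RefSeq table as a transcribed pseudogene, was 1.47-fold lower, from 29.8 ± 3.18 to 20.2 ± 2.96 CPM (SD, n = 3, edgeR adjusted p = 7.44e-04). Cxcl9 had 4 counts over the GFP libraries and none over the ORAI2 libraries.

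Of the 3 CC members, Ccl7 had the smallest adjusted p. It was at 574, 572 and 551 CPM in GFP and at 429, 436 and 487 CPM in ORAI2. The groups did not overlap, and the GFP libraries lay close together. Ccl7 was 1.25-fold lower (log2 fold change -0.33, SE 0.05, adjusted p = 1.22e-04, edgeR).

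Ccl2, the main monocyte attractant, was at 1119, 1120.2 and 937 CPM in GFP and at 959, 921 and 935 CPM in ORAI2. GFP replicate 3 sat among the ORAI2 libraries, so the groups overlapped. The log2 fold change was -0.17 (SE 0.06, adjusted p = 0.0303, edgeR). The call was lost with a robust fit (adjusted p = 0.0526). Leaving out GFP replicate 1 (0.117) or GFP replicate 2 (0.144) also ended it, as did leaving out ORAI2 replicate 2 (0.0898) or ORAI2 replicate 3 (0.0803).

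The ratio of Ccl7 to Ccl2 counts was 0.513, 0.510 and 0.589 in GFP and 0.447, 0.474 and 0.521 in ORAI2. Here the groups overlapped (exact two-sided permutation p = 0.3). The ratio was lower in ORAI2 in each of the 3 pairs of same-numbered libraries, and the exact paired test gave p = 0.25, the smallest that 3 pairs allow. At this number of libraries neither test could show that the changes of the 2 ligands differ. Ccl8, another monocyte attractant of the same cluster on chromosome 11, was scarce at 50, 36 and 32 counts in GFP and 20, 11 and 14 counts in ORAI2. It was 2.60-fold lower without overlap (log2 fold change -1.38, adjusted p = 0.00174, edgeR). Ccl12, the next gene to it, had 1 count in all. Summed, the CCR2 ligands Ccl2, Ccl7, Ccl8 and Ccl12 were 14.3% lower, at 1622 ± 108 and 1390.0 ± 30.5 CPM (SD, n = 3, without TMM scaling).

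Ccl5, an attractant of T cells and other leukocytes that cells make after viral infection, was the 1 member called higher. It was at 535, 572 and 529.6 CPM in GFP and at 596, 572 and 591 CPM in ORAI2. GFP replicate 2 and ORAI2 replicate 2 were practically level, so that the groups barely came apart. Ccl5 thus rose 1.08-fold (edgeR adjusted p = 0.0462; log2 fold change 0.10, SE 0.04). The call was lost with upper quartile scaling (adjusted p = 0.0977), and with no low-count filter (0.0655). It was also lost on leaving out GFP replicate 1 (0.133) or GFP replicate 3 (0.134), and on leaving out ORAI2 replicate 1 (0.0973) or ORAI2 replicate 3 (0.0944).

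**Figure D4:**
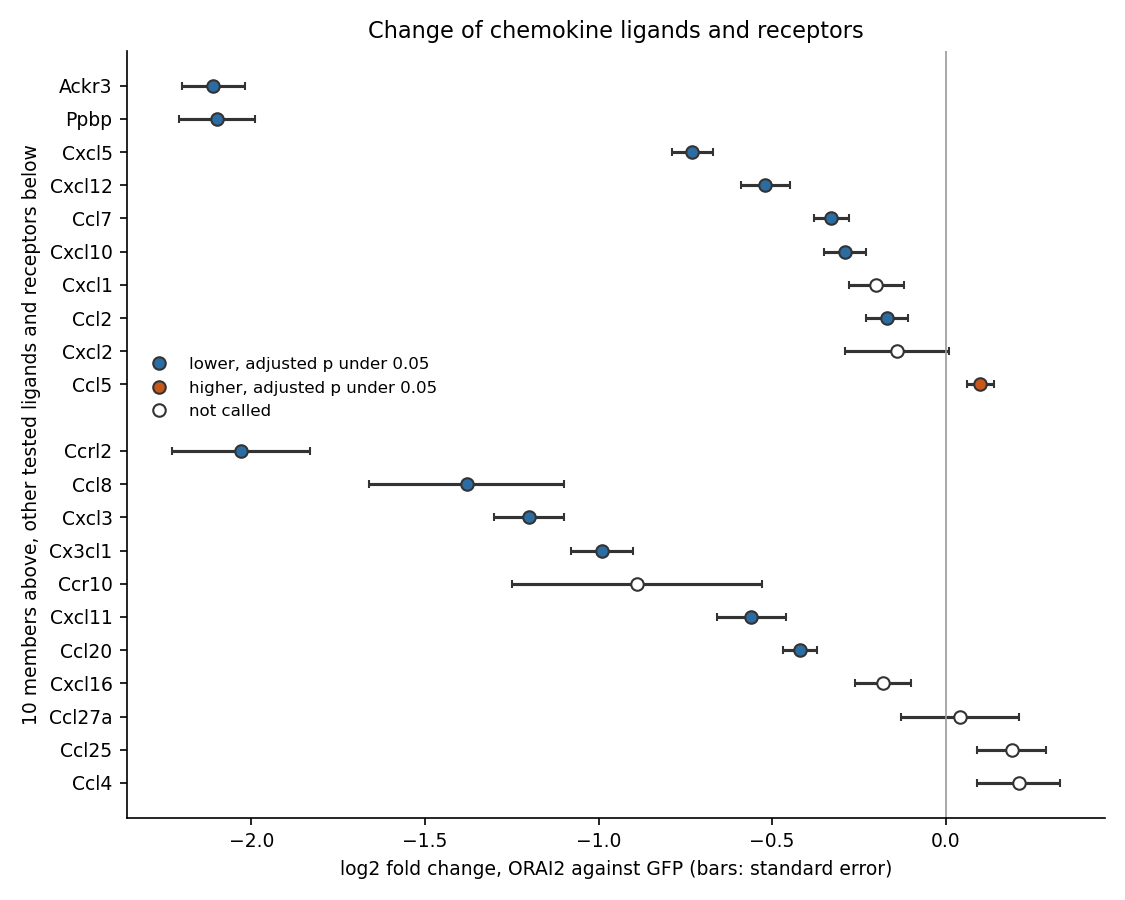
Log2 fold change of ORAI2 against GFP with its standard error for the 10 members (top) and for the other chemokine ligands and receptors that were tested (bottom); blue is lower, orange higher and open not called at an adjusted p of 0.05. Ackr3 and Ppbp lie near -2.1, Ccrl2 at -2.03, and Ccl5 is the only gene called higher in this plot.

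Divided by the length of the longest annotated transcript (GENCODE M21), the levels of different genes can be set in a rough order, which depends on the length used. In the GFP libraries, in CPM per kb of transcript, Ccl2 was highest (966 ± 96.4), followed by Ccl5 (817 ± 34.1), Cxcl5 (709.6 ± 43.1), Ccl7 (706 ± 15.5) and Cxcl10 (648 ± 62.9; all SD, n = 3). Neighbours in this order overlapped between libraries, except that Ccl5 lay above Cxcl5 throughout. Cxcl1 came well below these 5 at 97.2 ± 8.74, then Ackr3 at 16.2 ± 1.28, Ppbp at 14.2 ± 0.238, Cxcl2 at 7.74 ± 1.68 and Cxcl12 at 3.88 ± 0.191 CPM per kb, each above the next in every library.

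In the ORAI2 libraries the order was Ccl5 (878 ± 18.7), Ccl2 (856 ± 17.9), Ccl7 (563 ± 39.8), Cxcl10 (531 ± 24.5) and Cxcl5 (429 ± 42.9 CPM per kb). Ccl5 overlapped with Ccl2, and Ccl7 with Cxcl10. By its mean Cxcl5 stood at place 5, below every Cxcl10 value, against place 3 in GFP. A move in rank is not established, because the GFP values of Cxcl5 overlapped with those of Ccl7 and Cxcl10. Ackr3, at 3.76 ± 0.461, now stood below Cxcl2 (7.03 ± 1.18) and overlapped with Ppbp (3.29 ± 0.436), while Cxcl12 was lowest at 2.70 ± 0.11 CPM per kb. Genes with several annotated transcripts, such as Cxcl12 and Cxcl10 with 4 each, have a less certain place. The deposited TPM values, length-scaled shares of transcripts, put Cxcl10 above Cxcl5 in the columns named GFP-1 (3402.98 against 1684.09) and GFP-2 (2845.68 against 1696.77). Other pairs also stood apart from the order above. In these columns Ccl5 lay above Ccl2 (3795.69 against 3732.32, and 3557.62 against 3156.59). Ccl7 lay above Cxcl5 there (1936.01 against 1684.09, and 1889.39 against 1696.77). The column named GFP-3 went the other way for each of these pairs, with Cxcl10 at 728.76 against 1752.03 for Cxcl5.

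Libraries differed within a group in ways that several members shared. GFP replicate 3 was the lowest of its group for 8 of the 10 members, the exceptions being Ppbp and Cxcl12. The share of all genes for which this replicate was lowest is not given here, so a trait of the members cannot be told from one of the library. ORAI2 replicate 3 was the highest of its group for Cxcl1, Cxcl2, Cxcl5, Ccl7 and Ackr3. Relative spread was widest for Cxcl2, with a coefficient of variation of 21.7% in GFP and 16.8% in ORAI2, and narrowest in GFP for Ppbp (1.68%).

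Other chemokine ligands were taken from a list of 29, of which 22 could be looked up and 9 were tested. Of these 9, 5 were lower, none was higher and 4 did not pass, with a median log2 fold change of -0.42, beside 22.1% lower and 20.8% higher among all genes tested. Besides Cxcl3, Cxcl11 and Ccl8 these were Cx3cl1, the membrane-bound ligand fractalkine, with 20.2 ± 1.09 CPM in GFP against 10.2 ± 0.807 CPM in ORAI2, and Ccl20, a ligand of CCR6, with 64.4 ± 4.19 against 48.0 ± 1.22 CPM (SD, n = 3). These were 1.98-fold and 1.34-fold lower, with edgeR adjusted p-values of 1.80e-06 and 4.12e-05. For Cxcl16, Ccl4, Ccl25 and Ccl27a the log2 fold changes were -0.18, 0.21, 0.19 and 0.04, and none passed.

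Genes of the interferon response, which induce Cxcl10 and Ccl5 among others, were read beside them. Of 11 tested, 10 fell, none rose and 1 did not pass, with a median log2 fold change of -0.31. Among all genes tested, 22.1% fell and 20.8% rose, with a median of -0.002. Stat2, which carries the interferon signal to the nucleus, was at 923, 985 and 1026 CPM in GFP and at 637, 677 and 666 CPM in ORAI2. All ORAI2 libraries lay below all GFP libraries, a 1.48-fold difference (edgeR adjusted p = 6.89e-07). The transcription factors Irf1 and Irf7 were 1.75-fold and 1.61-fold lower (adjusted p = 2.12e-07 and 4.65e-06, edgeR). Irf3, which starts the response, did not pass (log2 fold change -0.08). Ifnb1, the gene for interferon beta, was singled out after its values were seen: it was scarce at 2.57 ± 0.437 CPM in GFP and 0.359 ± 0.0827 CPM in ORAI2 (SD, n = 3), 7.06-fold lower (adjusted p = 6.44e-06, edgeR).

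Next came genes of the NF-kB pathway and the cytokines that switch it on. Of 18 tested, 9 fell, 3 rose and 6 did not pass, with a median log2 fold change of -0.12, against 22.1% lower and 20.8% higher over all genes. Myd88, the adaptor of Toll-like and interleukin-1 receptors, had 70.5 ± 5.24 CPM in GFP against 49.1 ± 2.95 CPM in ORAI2 (SD, n = 3). Myd88 was 1.44-fold lower (edgeR adjusted p = 2.28e-05) and the inhibitor Nfkbie 1.59-fold lower (5.49e-05). Chuk, a kinase of the pathway, rose 1.33-fold from 100 ± 2.05 to 133 ± 3.12 CPM (2.12e-06), and Tnfaip3 (A20), which shuts the pathway down, rose 1.36-fold (3.00e-05; SD, n = 3, edgeR adjusted p). The subunits Nfkb1, Rela, Relb and Rel had log2 fold changes of 0.01, 0.09, -0.04 and -0.08 and did not pass. The subunit Nfkb2 was lower (log2 fold change -0.16, adjusted p = 0.0122, edgeR).

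Many chemokine messages are short-lived, so genes of RNA decay and stability were read too. Of 8 such genes 4 fell, 2 rose and 2 did not pass, with a median log2 fold change of -0.15, again beside 22.1% and 20.8%. Zfp36l1 and Zfp36, which bind AU-rich messages and promote their decay, were 1.58-fold and 1.35-fold lower (adjusted p = 4.70e-07 and 0.00283), Auh 1.45-fold lower (6.35e-05), and Hnrnpd rose 1.14-fold (0.00175, edgeR).

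Of 11 tested genes that carry the receptor signal, 4 fell, 3 rose and 4 did not pass, with a median log2 fold change of -0.04. Over all genes the shares were 22.1% lower and 20.8% higher. Gng2, a G protein subunit, and Grk5, a receptor kinase, were 1.4-fold and 1.57-fold lower, while Grk6, another receptor kinase, and Rgs16, which ends G protein signals, rose 1.22-fold and 1.39-fold (adjusted p at most 1.66e-04, edgeR). Of 11 tested genes that trim chemokines or display them on heparan sulfate, 3 fell, 4 rose and 4 did not pass, with a median of 0.02. The proteases Mmp2 and Mmp13 went opposite ways, 1.70-fold lower and 1.46-fold higher, the heparan sulfate carrier Sdc1 was 1.31-fold lower and the chain-building enzyme Ext1 rose 1.20-fold (adjusted p at most 0.00131, edgeR).

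**Figure D5:**
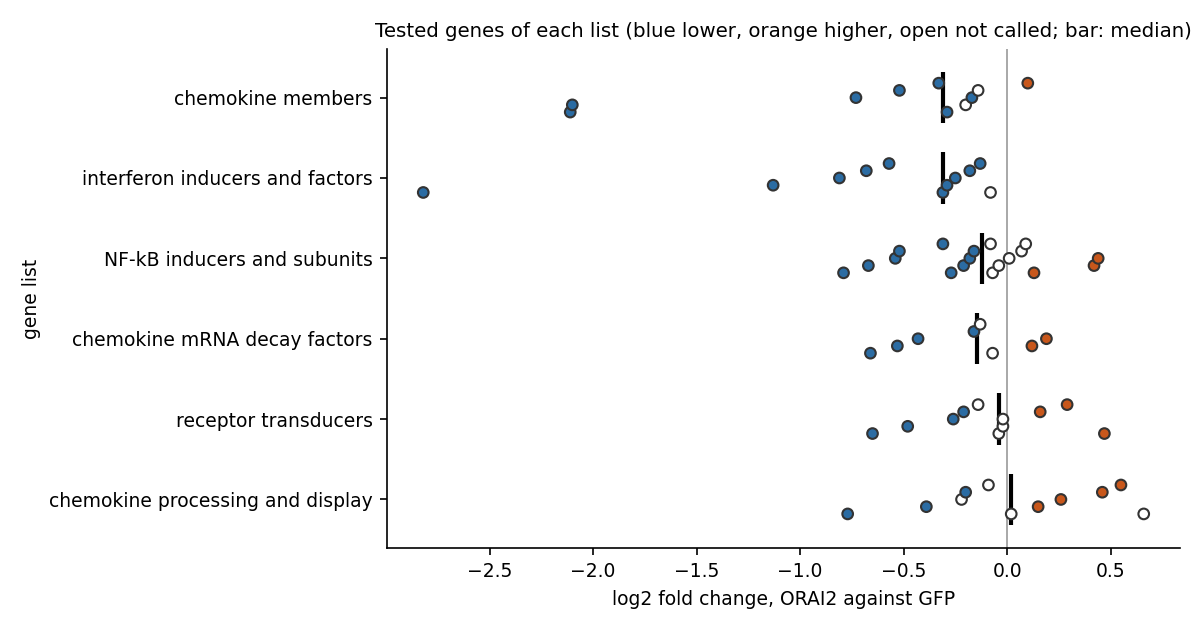
Log2 fold change of ORAI2 against GFP for the tested genes of 6 lists; each point is a gene (blue lower, orange higher, open not called at an adjusted p of 0.05), and the vertical bar is the list's median. The chemokine members and the interferon genes have medians of -0.31 each, and the receptor transducers have a median of -0.04.

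Most markers of leukocytes and vessels that could bring chemokine RNA into the culture were scarce. Cd14 and Lck were less so, with means of 39.8 and 20.1 CPM in GFP, above the member Ppbp at 15.3 CPM. Of 10 macrophage markers 8 could be looked up, and they summed to between 52.0 and 55.7 CPM in GFP and between 26.7 and 35.9 CPM in ORAI2. Most of that was Cd14, which was 1.56-fold lower (adjusted p = 2.68e-04), and Mpeg1, which was 3.30-fold lower (3.08e-07, edgeR), while Cd68 did not pass. Among all genes tested, 22.1% were called lower. The defining genes Ptprc, Csf1r, Itgam and Aif1 had at most 4 counts in any library. Their part in the fall of the chemokines was not tested.

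Neutrophil markers summed to at most 0.702 CPM in any library and none was tested. T and NK cell markers summed to between 19.5 and 21.3 CPM in GFP and between 15.1 and 17.2 CPM in ORAI2, nearly all of it Lck (1.24-fold lower, edgeR adjusted p = 0.00558), with Cd8a and Nkg7 at 0 in all libraries. Endothelial markers summed to between 7.70 and 10.7 CPM in GFP and between 17.2 and 18.1 CPM in ORAI2. Of 3 tested, Kdr and Vwf rose 2.01-fold and 2.76-fold and Erg was 2.14-fold lower (adjusted p = 5.97e-05, 1.84e-05 and 0.0117, edgeR). Emcn was at 0 in all libraries. Among all genes tested, 22.1% were lower and 20.8% higher. The Erg call was lost without GFP replicate 1 (adjusted p = 0.0575) or without ORAI2 replicate 3 (0.0543, edgeR).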

How the data were processed

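For every gene and library the deposited table held a raw count and a TPM value, a length-scaled share of transcripts, per the file headers. The submitters' processing notes name Salmon 1.4.0, HISAT2 2.0.4 and the build GRCm39. The sources used here do not state their roles, the annotation or the use of strand. Only counts were tested, because TPM columns and like-named counts disagreed in the pattern across libraries. Genes are Entrez numbers, and 25631 of 26532 (96.6%) matched a symbol in a RefSeq table of GRCm38.p6, from which gene order but no coordinate is given. Promoters were printed with the coordinates of their own table (GRCm38.p6), and transcript lengths and shared words came from GENCODE M21.

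Counts were tested with edgeR 4.0.16 in R 4.3.3 (quasi-likelihood test, TMM scaling, filterByExpr with a minimum count of 10), ORAI2 against GFP as the only term, over all 13764 genes that passed. Standard errors derive from the F statistic. Levels are CPM after TMM scaling unless said otherwise, with n = 3. The fit was tested on simulated data. Within a group, libraries differed by more than sampling noise (chi-square per gene 2.54 to 4.50, minimum count 20), and none was counted as a copy. Libraries with the same number deviated together (correlations 0.227, 0.106 and 0.24 over 10526 genes, against -0.218 to -0.01 between different numbers). The sources used here do not say that the numbers mark shared cultures. The main fit was therefore unpaired, and the replicate block, which pairs libraries of the same number, was an alternative.

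The members and the 15 gene lists were chosen with earlier results of these data known. Named were all members, up to 4 called genes with the smallest p from each other list, 10 receptors and relatives fixed by name, the 4 genes most like Ackr3 among those with a mean of at least 5 CPM, and neighbours in the gene order. Some genes that this rule names are not reported here. Further genes, such as those given only by counts or as not called, were chosen after seeing values. Alternatives were 9 other settings, among them DESeq2 1.42.0 and voom (limma 3.58.1), and each of the 6 libraries left out. Intervals and floors cover counting error only.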

Additional observations from a re-analysis of the deposited data

Results flagged for a closer look

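The deposited TPM columns, which entered no test, held values for members above every GFP column by more than 1.5 times. In the column named ORAI2-3, Ccl5 was at 10190.48 TPM, against 3795.69 in the highest GFP column. Ccl2 was there at 6819.84 TPM against at most 3964.92, Cxcl1 at 983.73 against at most 580.94, and Cxcl2 at 113.44 against at most 48.58. The like-named counts show no rise of that size. Orai2 was at 1429.5 and 1241.34 TPM in the columns named ORAI2-1 and ORAI2-2, but at 36.33 in the column named ORAI2-3, beside 24.83, 24.86 and 38.19 in the GFP columns. Over 8895 genes, each TPM column, as centred log2 values, correlated best with a count column of another number in its own group. The columns named GFP-1, GFP-2 and GFP-3 correlated best with the counts named GFP-2 (0.59), GFP-3 (0.58) and GFP-1 (0.43), against 0.39, 0.41 and 0.35 with their own. Those named ORAI2-1, ORAI2-2 and ORAI2-3 did so with ORAI2-2 (0.79), ORAI2-3 (0.73) and ORAI2-1 (0.22), against 0.56, 0.66 and 0.12. These correlations are across genes, which are not independent replicates. Ackr3 was at 48.82, 49.05 and 93.42 TPM in the GFP columns and at 10.87, 13.51 and 45.8 TPM in the ORAI2 columns, so the column named ORAI2-3 lay near those named GFP-1 and GFP-2. Which libraries the TPM columns come from was not tested further.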

How the results depend on the processing

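Ackr3, Ppbp, Cxcl5, Cxcl12, Cxcl10 and Ccl7 kept their direction and their call under all 9 settings and without any single library, with log2 fold changes from -2.21 to -2.04 for Ackr3, -2.21 to -2.04 for Ppbp, -0.81 to -0.67 for Cxcl5, -0.55 to -0.48 for Cxcl12, -0.36 to -0.23 for Cxcl10 and -0.38 to -0.29 for Ccl7. No result reversed. Ccl5 lost its call with upper quartile scaling (log2 fold change 0.08) and with no low-count filter (0.10), so that the count of members called higher was 0 in both. Ccl2 lost its call with the robust fit (-0.17), and Cxcl1 gained one with upper quartile scaling (-0.22) and with the replicate block (-0.20). The block, which pairs libraries of the same number, changed no other call. The pairing left the ratios at -1.59, -0.53 and -0.16 on the log2 scale. The exact paired test gave p = 0.25 for each ratio, the smallest that 3 pairs allow. With libraries left out, Cxcl1 lay between -0.30 and -0.10, Ccl2 between -0.26 and -0.13, Ccl5 between 0.08 and 0.14, and the count of members called higher between 0 and 1. Over all genes, the count called lay between 4825 (DESeq2) and 6246 (replicate block), against 5909. The median log2 fold change of all genes was -0.022 with upper quartile scaling, against -0.002. A minimum of 5 CPM in 3 libraries left Itga2b, Ccl8 and Erg untested. Ifnb1, with 2.19 to 3.05 CPM in GFP libraries, and Rassf6, with a GFP mean of 3.09 CPM, also lay under that minimum. Their calls under the alternatives are not given here. With 3 libraries a group, ratios cannot reach an exact p below 0.1, and Cxcl2 and the receptors are limited by their low counts.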
